A study of Mus musculus with 10 samples.

Results

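Kit, Flt3, Epor, Csf1r and Csf3r are receptors through which haematopoietic stem and progenitor cells receive survival and lineage signals, and their transcripts were followed here in adult mouse haematopoietic stem cells (HSCs) with an induced Sox17 transgene. Each had 1 probe set that the platform annotation gives to that gene alone, so 5 of 19938 genes with a probe set of their own are described. The transgenic cells came from mice with a pair of transgenes. These were (tetO)7CMVSox17-IRES-NucEGFP, which carries Sox17 behind a tetracycline-controlled CMV promoter together with nuclear green fluorescent protein, and an rtTA*M2 activator at the ROSA26 locus (Gt(ROSA)26Sortm1(rtTA*M2)Jae on the B6.Cg background). The control cells came from littermates whose genotype is given as wild type. All mice were 8 weeks old, and both groups drank doxycycline at 2 mg/ml for 5 days, the drug that turns the transgene on. Each group had 5 arrays (Affymetrix Mouse Gene 1.0 ST, n = 5 each), and each array held amplified cDNA from 10000 bone marrow cells sorted as CD150+, Sca1+ and cKit+ and as CD48- and lineage-negative. The labels call the aliquots independent without naming their animals, and the p-values speak only of sample-to-sample spread, part of which may be technical.

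Kit, Flt3 and Csf1r belong to one family of receptor tyrosine kinases, which dimerise around their ligands and phosphorylate themselves. Epor and Csf3r have no kinase of their own and signal through JAK2 and other Janus kinases bound to their tails, which phosphorylate STAT factors. In the marrow, Kit and its ligand maintain stem cells and early progenitors, Flt3 marks multipotent and lymphoid-primed progenitors, Epor carries erythroid progenitors through red cell formation, Csf1r serves monocytes and macrophages, and Csf3r serves neutrophils and their precursors. The comparison asks how induced Sox17, a transcription factor of endoderm, arterial endothelium and fetal HSCs, changes these transcripts in adult HSCs.

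The arrays were split into 2 sets of 5 by the sign of the first principal component, with group means subtracted. Set A held transgenic arrays 1, 2 and 3 and wild-type arrays 1 and 2. Set B held transgenic arrays 4 and 5 and wild-type arrays 3, 4 and 5. Subtracting the group means places both signs in each genotype, so it was fixed in advance that each set holds both genotypes. Scores on the component ran from 0.242 to 0.378 in set A and from -0.483 to -0.201 in set B. The sets were found in these values, and no label names them. Sox17 itself read 4.25 to 4.51 log2 units on transgenic arrays and 4.02 to 4.30 on wild-type arrays (log2 difference 0.16, SE 0.09, limma adjusted p = 0.855), so its induction could not be seen with this probe set and every direction rests on the arrays' labels. Transgenic array 4 alone had low Xist (4.32, while the remaining transgenic arrays read 10.8 to 11.4 and the wild-type arrays 10.9 to 11.3) and high Y-linked Eif2s3y (9.23). Without it the log2 differences were 1.43 for Flt3, -0.45 for Kit, -0.45 for Epor, 0.09 for Csf1r and 0.22 for Csf3r, and none passed (limma, adjusted p of 0.299 to 0.936). The 13 measured HSC markers lay between the 52.8 (Fgd5) and 96.4 (Hlf) percentiles of tested probe sets by mean level. Procr and Mecom averaged 9.21 and 8.83 on transgenic arrays and 8.12 and 8.49 on wild-type arrays. A dimmer probe set of Mecom averaged 6.34 on transgenic arrays and 6.16 on wild-type arrays. Markers of other cell types spread over low and high percentiles: 11 of B cells between 6.77 (Cd79a) and 74.1 (Vpreb1), 21 of monocytes and macrophages between 7.12 (Ccr2) and 88.8 (Lyz2), and 18 of granulocytes between 9.6 (Mmp8) and 72.9 (Prtn3). All levels are log2 values after robust multi-array averaging, which compresses differences between low values. A level of 1 probe set cannot be set against that of another as an amount of transcript. The percentiles therefore only place each probe set's signal and do not measure the share of a cell type.

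None of the 5 receptors passed the threshold of 0.05 in limma after Benjamini-Hochberg adjustment over all 23410 probe sets, where 0.141% of probe sets passed, 0.12% higher and 0.0214% lower. An unadjusted p under 0.05 was found for 3 receptors, Flt3, Kit and Epor, as for 6.59% of all probe sets. The transgenic and wild-type arrays did not overlap for Flt3, which lay higher on every transgenic array, nor for Epor, which lay lower. Such a lack of overlap was seen for 0.876% of probe sets in the higher and 0.594% in the lower direction, 1.47% in all. The genes were chosen with earlier results for some of them known, so these counts describe them and do not test them as a group.

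**Figure D1:**
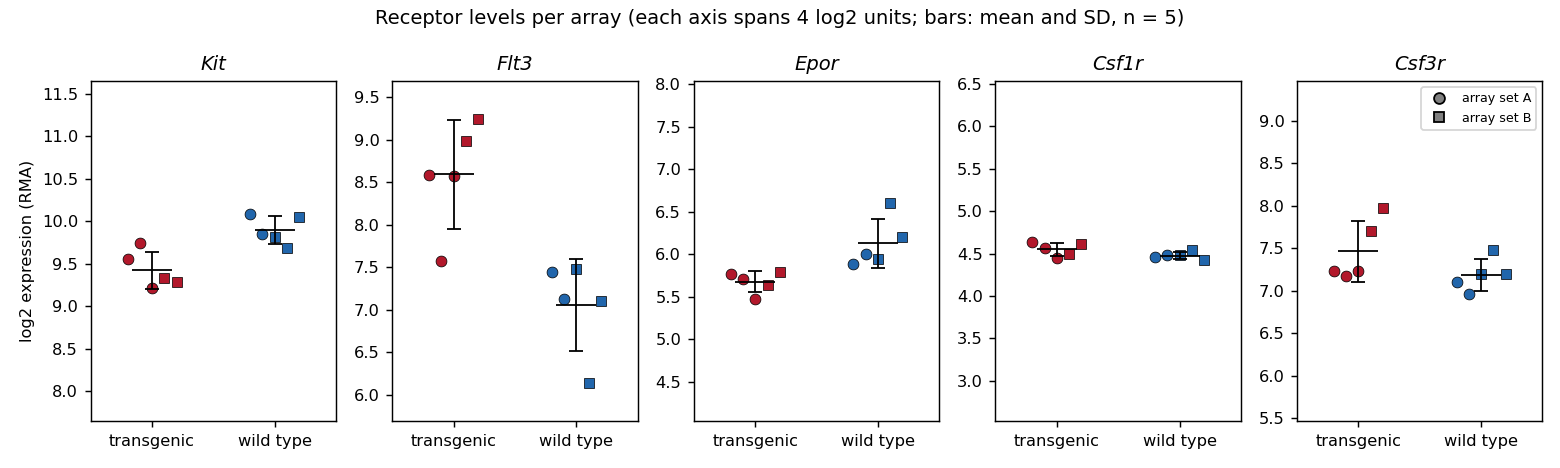
Log2 expression of the 5 receptors on each array, transgenic on the left of each panel and wild type on the right, with circles for array set A and squares for set B and bars for the mean and SD (n = 5). The Flt3 values are 7.57 to 9.24 on transgenic arrays and 6.14 to 7.48 on wild-type arrays, and the Csf1r values all lie between 4.42 and 4.64.

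The upstream DNA of the 3 receptors with an unadjusted p under 0.05 is shown because Sox17 acts on DNA and each gene has transcription factors tied to its lineage. The sequences are the 250 bases before the annotated start, 5′ to 3′ on the gene's strand, from RefSeq on GRCm38.p6. They are chr5:147400490-147400739 (minus strand) for Flt3, chr5:75574737-75574986 (plus strand) for Kit and chr9:21963577-21963826 (minus strand) for Epor. Capitals mark matches on either strand to short cores searched by their letters: ACAAT for SOX factors, GATAA for GATA factors, GAGGAA for PU.1, TGTGGT for RUNX factors and CCGCCC for the GC box.
Flt3: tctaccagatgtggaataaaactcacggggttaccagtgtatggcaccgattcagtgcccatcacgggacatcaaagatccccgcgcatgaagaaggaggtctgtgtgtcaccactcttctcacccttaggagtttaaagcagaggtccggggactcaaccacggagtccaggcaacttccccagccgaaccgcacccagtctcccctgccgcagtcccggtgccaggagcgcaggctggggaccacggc
Kit: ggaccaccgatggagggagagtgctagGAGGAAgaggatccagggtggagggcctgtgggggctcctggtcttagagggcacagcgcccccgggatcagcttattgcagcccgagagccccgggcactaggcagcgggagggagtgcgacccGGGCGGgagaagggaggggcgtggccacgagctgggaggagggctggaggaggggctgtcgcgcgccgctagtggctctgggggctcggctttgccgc
Epor: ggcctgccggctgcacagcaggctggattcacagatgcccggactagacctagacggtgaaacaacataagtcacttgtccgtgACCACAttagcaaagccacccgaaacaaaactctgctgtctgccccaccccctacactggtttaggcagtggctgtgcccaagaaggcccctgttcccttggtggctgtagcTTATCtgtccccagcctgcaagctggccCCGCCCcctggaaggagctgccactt

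The Flt3 window held 0 of these cores, and the Kit window held GAGGAA once and the GC box once. The Epor window held 1 GATA core beginning 54 bases before the start, 1 RUNX core and 1 GC box, and none of the cores overlapped another. No SOX core lay in these 3 windows. The Csf3r window, the only other one available for these receptors, had 1. That window (chr4:126024409-126024658) is not a like region, since it lies inside the annotated gene, which spans 126023441 to 126044975. Of 27025 windows of the same length, 1 per gene, 28.2% held the SOX core, 23.0% the GATA core, 23.1% GAGGAA, 14.2% the RUNX core and 33.0% the GC box. These matches describe letters and show neither binding nor its absence.

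Flt3, the receptor for FLT3 ligand, had the largest difference of the 5. It read 8.58, 7.57, 8.57, 8.99 and 9.24 log2 units on transgenic arrays 1 to 5, against 7.44, 7.13, 7.48, 6.14 and 7.10 on wild-type arrays 1 to 5. Every transgenic array lay above every wild-type array, but by only 0.09 log2 units between the lowest transgenic array, 2, and the highest wild-type array, 3. The means were 8.59 ± 0.64 on transgenic and 7.06 ± 0.54 on wild-type arrays (SD, n = 5 each), a log2 difference of 1.53 (95% interval 0.82 to 2.24), or 2.89-fold. Only 0.0982% of tested probe sets differed by more in either direction. Flt3 also varied widely within the groups: its pooled SD of 0.59 was exceeded by 2.76% of probe sets, whose median SD was 0.19. The difference did not pass (limma, adjusted p = 0.132).

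Single arrays moved the Flt3 result. Without transgenic array 2 the log2 difference was 1.79 and passed (limma, adjusted p = 0.0274), and without wild-type array 4, the lowest, it was 1.30 (adjusted p = 0.250). Over the 10 fits that each left out 1 array the adjusted p ran up to 0.305. Flt3 averaged 8.24 on transgenic and 7.29 on wild-type arrays of set A, a difference of 0.95, and 9.12 on transgenic and 6.91 on wild-type arrays of set B, a difference of 2.21. Neither passed within its set (limma, adjusted p = 0.574 for set A and 0.201 for set B), and whether the sets differ in this was not tested. With the set as a block the difference was 1.58 (limma, adjusted p = 0.0825), in a fit whose residual spread is lowered by construction because the sets were drawn from these values.

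Kit, the receptor for stem cell factor, is also the protein on which the cells were sorted, so its transcript was measured among cells already chosen for its product. It read 9.56, 9.74, 9.22, 9.33 and 9.28 on transgenic arrays 1 to 5, against 10.08, 9.85, 9.82, 9.68 and 10.05 on wild-type arrays 1 to 5. The groups overlapped at 1 point, transgenic array 2 lying above wild-type array 4. The mean was 9.43 ± 0.22 on transgenic and 9.90 ± 0.17 on wild-type arrays (SD, n = 5 each), a log2 difference of -0.47 (95% interval -0.73 to -0.21) or 0.722-fold. It did not pass (limma, adjusted p = 0.248). Within array set A the difference was -0.46 and within set B -0.54, and it ran from -0.55 to -0.42 when single arrays were left out.

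Epor, the erythropoietin receptor, had a mean level at the 51.8 percentile of tested probe sets. It read 5.77, 5.71, 5.48, 5.64 and 5.79 on transgenic arrays 1 to 5, against 5.89, 6.01, 5.94, 6.60 and 6.21 on wild-type arrays 1 to 5. All transgenic arrays lay below all wild-type arrays, with 0.10 between the groups. The means of 5.68 ± 0.13 on transgenic and 6.13 ± 0.29 on wild-type arrays (SD, n = 5 each) gave a log2 difference of -0.46 (95% interval -0.75 to -0.16) or 0.729-fold, which did not pass (limma, adjusted p = 0.376). Wild-type array 4 was the highest and, left out, gave -0.34 (adjusted p = 0.446). Within set A the difference was -0.30, and within set B it was -0.54.

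Csf3r, the receptor for granulocyte colony-stimulating factor, overlapped between the groups. It read 7.23, 7.18, 7.24, 7.70 and 7.98 on transgenic arrays 1 to 5, against 7.10, 6.96, 7.20, 7.48 and 7.20 on wild-type arrays 1 to 5. The highest values were those of transgenic arrays 4 and 5, and the other 3 transgenic arrays lay within the range of the wild-type arrays. The means were 7.46 ± 0.35 on transgenic and 7.19 ± 0.19 on wild-type arrays (SD, n = 5 each; log2 difference 0.28, 95% interval -0.09 to 0.64, limma adjusted p = 0.888). With the group in the model Csf3r was 0.44 higher in set B than in set A, Flt3 0.25 and Epor 0.18 higher, Csf1r 0.01 higher and Kit lower (-0.16). These are descriptions without a test, since the sets were drawn from the same values. Within the sets the group difference was 0.19 in A and 0.54 in B, and with the set as a block it was 0.36 (adjusted p = 0.246). Without transgenic array 5 it was 0.15 (adjusted p = 0.851).

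Csf1r, the receptor for macrophage colony-stimulating factor and interleukin-34, lay at the 26.9 percentile of tested probe sets and hardly varied. It read 4.64, 4.56, 4.45, 4.49 and 4.61 on transgenic arrays 1 to 5, against 4.46, 4.48, 4.48, 4.54 and 4.42 on wild-type arrays 1 to 5. The groups overlapped, at 4.55 ± 0.08 on transgenic and 4.48 ± 0.04 on wild-type arrays (SD, n = 5 each). The log2 difference was 0.07 (95% interval -0.07 to 0.22, limma adjusted p = 0.943), and 98.4% of probe sets had a larger pooled SD than its 0.06.

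**Figure D2:**
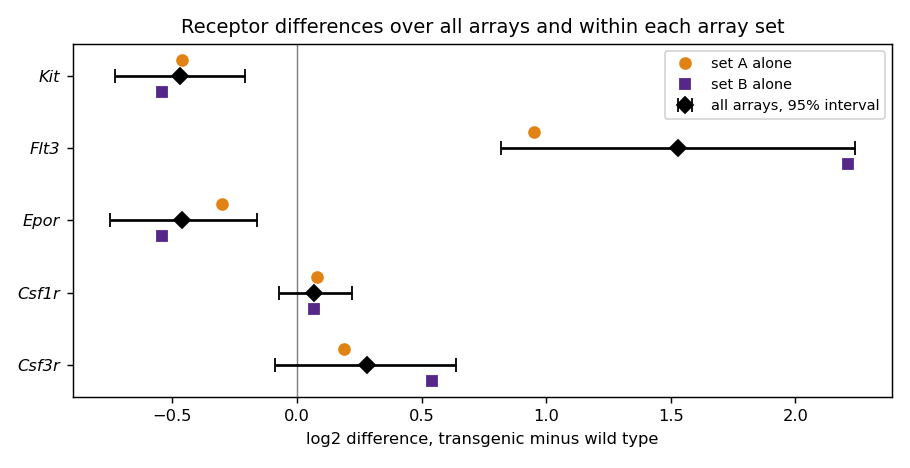
Log2 difference of each receptor, transgenic minus wild type, with its 95% interval over all arrays (diamonds) and the difference within array set A (circles) and set B (squares). The intervals of Kit (-0.73 to -0.21), Flt3 (0.82 to 2.24) and Epor (-0.75 to -0.16) do not reach 0 before adjustment for the number of probe sets, and those of Csf1r and Csf3r do.

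Across the 10 arrays Flt3 ran opposite to Epor (Pearson r = -0.83) and to Kit (-0.74), which in part restates their group differences. After each group's mean was subtracted the correlations were -0.55 and -0.24. The 10 points share the groups and the array sets, and these values are a description. Among 9422 genes brighter than the median probe set, those most like Flt3 over the 10 arrays were Fut8 (Pearson r = 0.956), Tnfsf10 (0.949) and Mgst1 (0.949). Those most like Kit were Mc5r (0.945), Blvrb (0.929) and Tuba8 (0.926), and those most like Epor were Gga1 (0.953), Il27 (0.941) and Gtpbp6 (0.906). Csf3r was closest to Ldhd (0.962), Arhgef40 (0.944) and Acer2 (0.935), and Csf1r to Slc16a9 (0.919), Ccdc97 (0.912) and Cdc42ep4 (0.847). Each r is the highest of 9422 and is therefore biased upwards. With the group means subtracted, Slc16a9 (0.946) stayed first for Csf1r and Ldhd (0.969) for Csf3r, while the first for Flt3 was Kat14 (0.934), for Kit Rnase6 (0.962) and for Epor Col16a1 (0.973).

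The 6 ligand genes of the receptors (Kitl, Flt3l, Epo, Csf1, Il34 and Csf3) were all measured. Of these 0 passed in limma and 0 had an unadjusted p under 0.05, beside 0.141% and 6.59% of all tested probe sets. Flt3l averaged 8.02 ± 0.23 on transgenic and 7.99 ± 0.18 on wild-type arrays (SD, n = 5 each; log2 difference 0.03, 95% interval -0.25 to 0.31). The others differed by between -0.14 (Il34) and 0.13 (Csf1), and by mean level the 6 lay between the 6.67 (Kitl) and 83.9 (Flt3l) percentiles.

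Among the other haematopoietic cytokine and growth factor receptors, 1 of 24 measured genes rose and 0 fell. Over all tested probe sets 0.12% rose and 0.0214% fell. The gene that rose was Csf2rb, the beta chain shared by the receptors for interleukin-3, interleukin-5 and granulocyte-macrophage colony-stimulating factor. Csf2rb read 7.77, 7.47, 7.82, 7.83 and 7.98 on transgenic arrays 1 to 5, against 6.82, 6.53, 6.41, 6.70 and 6.08 on wild-type arrays 1 to 5. The groups lay well apart, and Csf2rb rose 2.40-fold (log2 difference 1.26, SE 0.14, limma adjusted p = 0.00831). It passed in all 10 fits that left out 1 array (adjusted p up to 0.0322). Its close mouse paralog Csf2rb2, from which probes may not part it with certainty, differed by 1.03 (adjusted p = 0.110), the interferon-gamma receptor chain Ifngr2 by 0.70 (adjusted p = 0.0917) and Il6st, the signal chain of the interleukin-6 family, by 0.65 (adjusted p = 0.132). The list's median log2 difference was 0.13, with 20 of 24 genes positive, against a median of -0.011 and 46.3% positive over all tested probe sets.

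Inside the cell these receptors are held in check by phosphatases, ubiquitin ligases and induced feedback inhibitors. Of 27 inhibitor genes 1 rose, 0 fell, 22 were positive and the median was 0.21, where over all tested probe sets 0.12% rose, 46.3% were positive and the median was -0.011. Cish, an inhibitor that STAT5 induces, averaged 7.58 ± 0.38 on transgenic and 6.46 ± 0.24 on wild-type arrays (SD, n = 5 each; 2.17-fold, limma adjusted p = 0.0447). Of the 10 fits that left out 1 array it passed in 1, that without transgenic array 2, and the largest adjusted p was 0.130. Socs2, another inhibitor that STAT5 induces, differed by more but did not pass: it read 9.76, 8.19, 9.95, 9.58 and 9.58 on transgenic arrays 1 to 5, against 6.94, 7.47, 8.25, 7.22 and 6.24 on wild-type arrays 1 to 5 (log2 difference 2.19, SE 0.39, adjusted p = 0.0743). Transgenic array 2, the lowest of its group for Flt3 too, lay just below wild-type array 3. A dimmer probe set of Socs2 gave a smaller log2 difference of 1.11 (SE 0.18, adjusted p = 0.0515). The lipid phosphatase Inpp5d differed by 0.40 (adjusted p = 0.237) and Spry1, an inhibitor of receptor signalling, by 0.39 (adjusted p = 0.557). Of 28 measured genes of the signal path itself 0 passed in limma and 3 had an unadjusted p under 0.05, as 6.59% of all probe sets did (20 positive, median 0.15). Plcg2, a phospholipase, differed by 0.87 (adjusted p = 0.112), Pik3r1 by 0.67, Stat3 by 0.26 and Gab1 by 0.47, while Jak2 differed by 0.14, Stat5a by -0.07 and Stat5b by -0.09.

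**Figure D3:**
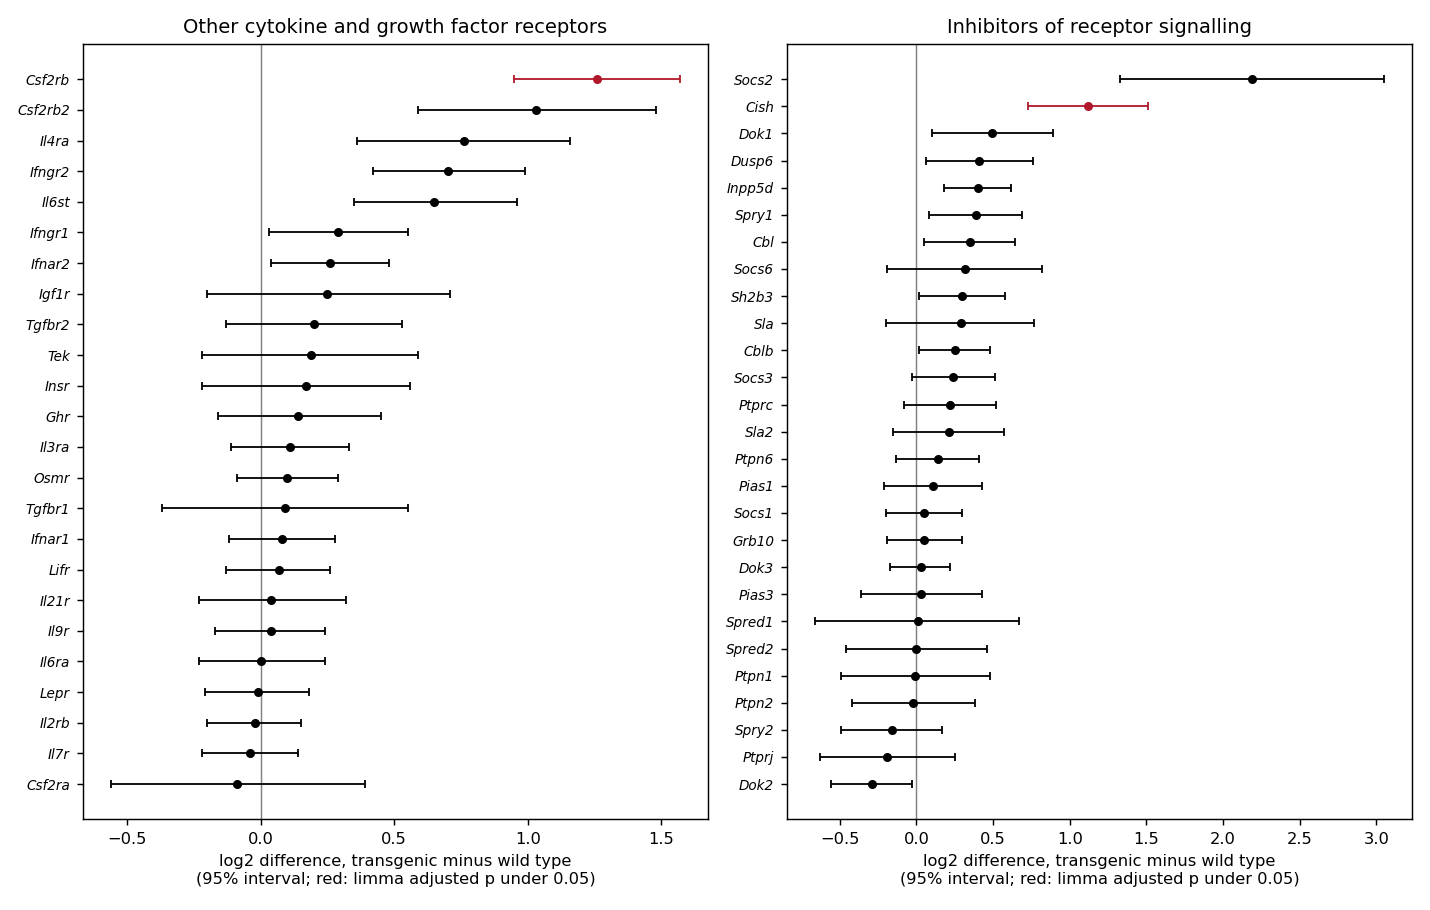
Log2 difference, transgenic minus wild type, of 24 other cytokine and growth factor receptors (left) and 27 inhibitors of receptor signalling (right), with 95% intervals and with genes that passed limma's adjusted threshold in red. Csf2rb at 1.26 and Cish at 1.12 passed, and Socs2 at 2.19 has the widest interval of the inhibitors shown.

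Of 23 transcription factors known to act on these receptor genes or their lineages, 1 rose, 1 fell and 9 were positive (median -0.07), against 0.12% higher, 0.0214% lower and 46.3% positive over all tested probe sets. Gfi1, a repressor of stem and granulocytic cells, rose 1.56-fold (log2 difference 0.64, limma adjusted p = 0.0335), and its paralog Gfi1b, of erythroid and megakaryocytic cells, fell by 1.05 on the log2 scale (adjusted p = 0.0266). Both calls lay near the threshold, and most fits with 1 array fewer lost them. Gfi1 passed in 2 of the 10 fits that left out 1 array, those without transgenic array 2 or 3. Gfi1b passed in 3, those without transgenic array 1, 2 or 5. The largest limma adjusted p over the 10 fits was 0.110 for Gfi1 and 0.0854 for Gfi1b. The GATA partner Tal1 differed by -0.22 (adjusted p = 0.532) and the erythroid factor Klf1 by -0.41 (adjusted p = 0.557). PU.1, Spi1, averaged 7.04 on transgenic and 6.71 on wild-type arrays (adjusted p = 0.570), and Runx1, Myb and Cebpa differed by 0.24, -0.20 and -0.23.

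Marker genes of the cell types that carry each receptor were set beside it. Over all tested probe sets 0.141% passed, 6.59% had an unadjusted p under 0.05, 46.3% were positive and the median was -0.011, and the counts of each marker list stand against these. In bulk RNA of this kind fewer cells of a type and less RNA per cell cannot be told apart. Beside Flt3, the mean level of 14 measured lymphoid-primed progenitor markers was 5.68 to 5.86 on transgenic and 5.48 to 5.66 on wild-type arrays. In that list 1 gene rose and 0 fell, and 11 were positive (median 0.13). Satb1, a chromatin organiser, rose 1.76-fold (limma adjusted p = 0.0109). The sort excludes cells with CD48 protein, and the Cd48 transcript read 7.00, 5.54, 6.14, 6.28 and 6.50 on transgenic arrays 1 to 5, against 4.95, 5.76, 4.47, 4.54 and 5.05 on wild-type arrays 1 to 5 (adjusted p = 0.145). For Cd48 transgenic array 2 was the lowest of its group and lay below wild-type array 2. Il12a was at 0.499-fold (adjusted p = 0.176) and Notch1 differed by 0.23 (adjusted p = 0.695). By mean level the list spread between the 4.99 (Rag2) and 93.9 (Cd34) percentiles. The part of such cells in the Flt3 difference was not tested.

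Beside Epor, 24 measured erythroid markers had mean levels of 5.50 to 5.75 on transgenic and 5.77 to 5.92 on wild-type arrays, with 0 genes higher and 1, Gfi1b, lower past the threshold, 19 negative and a median of -0.15. The iron uptake receptor Tfrc differed by -0.57 (limma adjusted p = 0.415), carbonic anhydrase Car2 by -0.38 (0.356) and the water channel Aqp1 by -0.41 (0.475). Beside Csf3r, 18 granulocyte markers had mean levels of 4.67 to 5.43 on transgenic and 4.64 to 4.83 on wild-type arrays, the highest on transgenic array 5, where Csf3r was also highest. Of them 0 passed in limma and 1 had an unadjusted p under 0.05 (14 positive, median 0.06). That gene was Cxcr2, which was lower on transgenic arrays and lay at the 15.8 percentile by mean level. Myeloperoxidase, Mpo, read 8.63 on transgenic array 5, against 5.41 to 6.93 on the other transgenic and 5.63 to 6.07 on wild-type arrays, and S100a8 read 7.92 there, against 4.39 to 5.97 on the other transgenic and 3.81 to 5.00 on wild-type arrays. Ctsg, S100a9, Elane, Prtn3 and Ms4a3 were also highest of the transgenic arrays there. The list did not rise as a whole on that array. Ltf (3.74), Lcn2 (4.12) and Camp (4.73) were the lowest of the transgenic arrays there, and Ngp and Mmp8 were tied for lowest. Cxcr2 differed by -0.60 (adjusted p = 0.322) and Prtn3 by 0.36. The sort was lineage-negative, a gate that commonly removes mature granulocytes, although the labels do not list its antibodies. The part of granulocytic RNA in the Csf3r values was not tested.

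Beside Csf1r, 21 monocyte and macrophage markers had mean levels of 5.34 to 5.65 on transgenic and 5.21 to 5.39 on wild-type arrays. Of these 0 passed in limma and 2 had an unadjusted p under 0.05, with 14 positive and a median of 0.07. Ms4a6c read 8.17, 6.54, 7.62, 8.29 and 8.11 on transgenic arrays 1 to 5, against 6.09, 5.13, 6.87, 6.05 and 5.93 on wild-type arrays 1 to 5 (log2 difference 1.73, adjusted p = 0.132). Transgenic array 2 was the lowest of its group. Lysozyme, Lyz2, differed by 0.36 (adjusted p = 0.455), Cd68 by 0.56 and Cd14 by 0.30. For Lyz2 transgenic array 2 was instead the highest of all arrays, at 9.08. The genes with array 2 lowest were remarked on after their values were seen. Beside Kit, the 13 measured HSC markers other than Kit had mean levels of 7.90 to 8.08 on transgenic and 7.55 to 7.94 on wild-type arrays, with 0 past the threshold in limma and 6 with an unadjusted p under 0.05 (10 positive, median 0.27), beside 6.59% and 46.3% positive over all probe sets. Procr differed by 1.08 (adjusted p = 0.247), Mecom by 0.33, Fgd5 by 0.27 and Esam by 0.52.

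**Figure D4:**
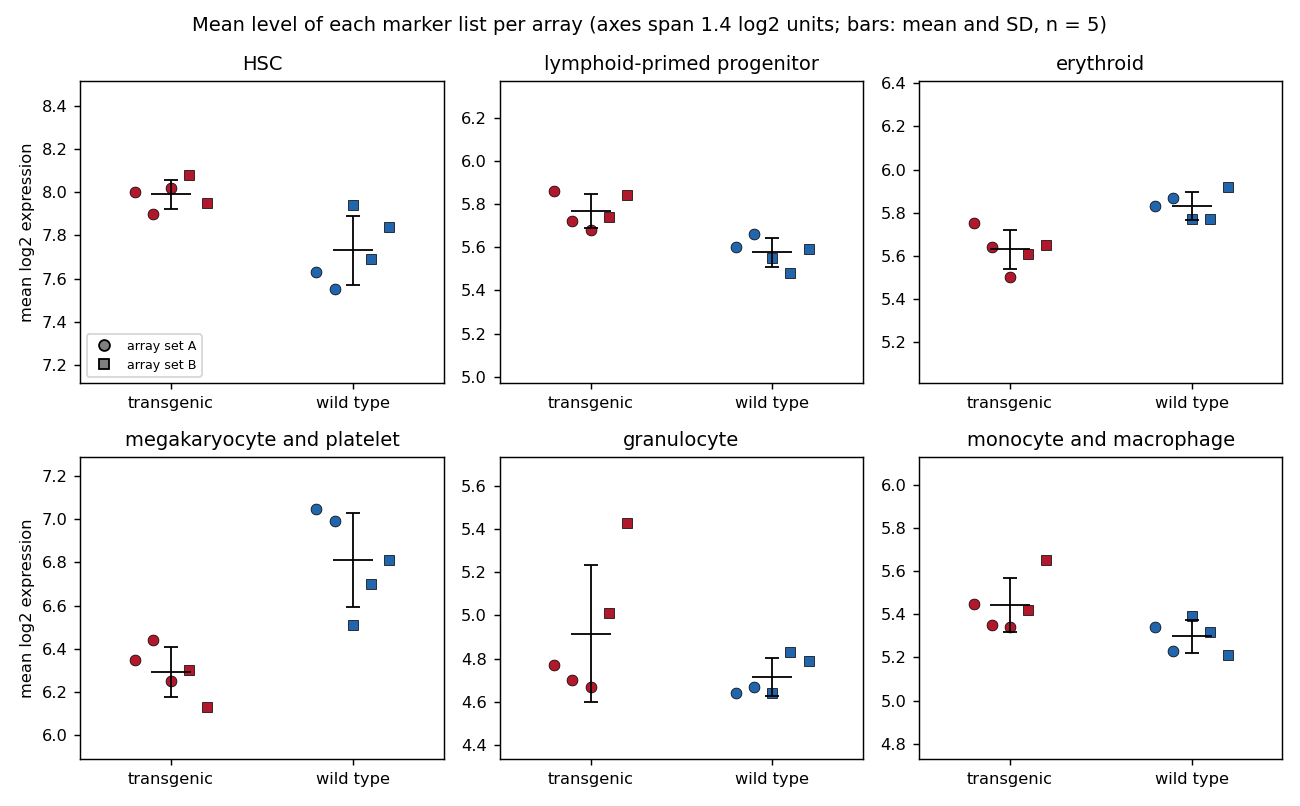
Mean log2 expression of the measured genes of 6 marker lists on each array, transgenic on the left and wild type on the right of each panel, with circles for array set A, squares for set B and bars for the mean and SD (n = 5). The granulocyte list reaches 5.43 on transgenic array 5, and the erythroid list lies at 5.50 to 5.75 on transgenic and 5.77 to 5.92 on wild-type arrays.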

How the data were processed

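Expression was measured in 10 samples on Affymetrix Mouse Gene 1.0 ST arrays. The authors deposited 1 table of log2 values with 35556 probe sets. Per the submitters' processing notes they come from robust multi-array averaging (RMA) with the R packages affy and limma; their versions are not given here. The values were used as deposited. Arrays carry no read depth; precision is limited by their number. The platform annotation gives 21789 probe sets 1 gene symbol and 1621 several; 12146 are unnamed here. Of the 21789, 21698 were found by identifier in RefSeq (GRCm38.p6), and 0 symbols changed.

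The 23410 probe sets with a symbol were compared between the groups by limma 3.58.1 under R 4.3.3, two-sided, as transgenic minus wild type (lmFit and eBayes), with Benjamini-Hochberg adjustment and a threshold of 0.05. In simulated data of 23410 probe sets and 5 against 5 arrays, 78% of log2 changes of 1 and 28% of those of 0.5 were recovered. The simulated noise was independent and held no array sets, and the changed probe sets were drawn at random. Over all tested probe sets the median SD was 0.19, so these rates are not the power for Flt3, whose pooled SD was 0.59. Lists named 278 genes besides the receptors, of which 252 had a probe set of their own; the one with the highest mean was used. Lists are described by counts and medians only. Genes named are the receptors, every list gene past the threshold, otherwise up to 4 per list with the smallest p, the ligands, Sox17, sex-linked genes, and for each receptor the 3 genes with the highest correlation; levels of other marker genes and of signalling genes were chosen after their values were seen. Members and lists were chosen with earlier results of these data known. Alternatives were a block for the replicate number, quantile normalization, median centring, the brighter probe sets, all probe sets, eBayes with trend and robust settings, array weights, a threshold of 0.01, the mean of a gene's probe sets and leaving out each array; those using the array sets were chosen after seeing the data. The closest of 45 array pairs differed by 0.19 log2 units per probe set on average, so none are copies of each other.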

Additional observations from a re-analysis of the deposited data

Results flagged for a closer look

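Of 40 groups of 5 arrays examined (the receptors and the mean levels of the lists), 1 held an array far from the others, and chance gives about 1 in 20. It was Flt3 in the wild-type arrays, where wild-type array 4 read 6.14 and the other wild-type arrays 7.10 to 7.48. On the same array Slamf1, the CD150 gene, read 6.36, against 7.13 to 7.81 on the other wild-type arrays, and Epor read 6.60, the highest of all 10. Slamf1 was picked from 13 measured HSC markers after the values were seen. The mean level of those markers on wild-type array 4 was 7.69, the median of the wild-type arrays. Without wild-type array 4 Flt3 differed by 1.30 (limma, adjusted p = 0.250).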

How the results depend on the processing

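The direction of each receptor's difference held under every alternative that could be computed, 21 each and 20 for Csf1r, which the fit of brighter probe sets leaves out. Some of these could not change the direction. The replicate block, the brighter probe sets, all probe sets, the eBayes settings and the threshold of 0.01 leave the log2 difference as it was. The receptors kept their side of the threshold in all of these but 1: leaving out 1 array gave 1.30 to 1.79 for Flt3, which passed without transgenic array 2 (1.79, adjusted p = 0.0274). The ranges over the alternatives were -0.55 to -0.42 for Kit, 0.95 to 2.21 for Flt3, -0.54 to -0.30 for Epor, 0.05 to 0.10 for Csf1r and 0.15 to 0.54 for Csf3r. The number of probe sets past the threshold was 33 (28 higher, 5 lower); it was 15 with all probe sets tested, 7 at a threshold of 0.01, 91 with the array set as a block, 4 within set A, 6 within set B and 15 to 71 without 1 array. The fits within a set have 5 arrays and the array sets were defined from these values, so the block lowers the residual spread by construction. Of the list genes 6 passed; the number was 3 with all probe sets, 1 at 0.01, 13 with the set as a block, 0 within set A, 0 within set B and 3 to 10 without 1 array. The cause of the other changes was not tested. The labels do not say whether the replicate numbers pair the samples. Same-numbered arrays' deviations correlated at -0.14 to 0.35, and these values cannot decide on pairing because the array sets enter them too. With the replicate number as a block 33 probe sets and 7 list genes passed, the receptors differed by -0.47 (Kit), 1.53 (Flt3), -0.46 (Epor), 0.07 (Csf1r) and 0.28 (Csf3r) with adjusted p of 0.186 to 0.921, and the adjusted p was 0.0812 for Cish and 0.0947 for Gfi1. Cish was also not called after quantile normalization, median centring or array weights or with all probe sets tested, Gfi1 after median centring or with all probe sets, and Gfi1b after quantile normalization or with all probe sets. Each receptor has 1 probe set of its own, so averaging probe sets gives no other value.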

Other observations

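Megakaryocyte and platelet genes were listed apart from the marker lists set beside these 5 receptors. Of 12 measured genes 0 rose, 1 fell, 10 were negative and the median was -0.66, while over all tested probe sets 0.12% rose, 0.0214% fell, 46.3% were positive and the median was -0.011. Platelet factor 4, Pf4, fell by 2.53 on the log2 scale (limma adjusted p = 0.0112), the platelet glycoprotein Gp5 differed by -1.08 and Plek by -1.12, and von Willebrand factor, Vwf, by 1.28. The list's mean level was 6.13 to 6.44 on transgenic and 6.51 to 7.05 on wild-type arrays.

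The remaining marker lists held 0 genes past the threshold in limma. With an unadjusted p under 0.05 were 3 of 14 endothelial and stromal genes (median 0.03), 2 of 14 T and NK cell genes (median -0.01), 1 of 11 B cell genes (median -0.04) and 0 of 11 mast cell and basophil genes (median -0.07), beside 6.59% of all probe sets. Vascular endothelial cadherin, Cdh5, read 7.38 and 7.70 on transgenic arrays 1 and 3, against 5.58 to 5.86 on the other transgenic and 4.58 to 5.36 on wild-type arrays. Pecam1 differed by 0.68 (adjusted p = 0.0591), the B cell progenitor gene Vpreb1 by -0.83, Nkg7 by -1.17 and the basophil gene Mcpt8 by -0.27.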
